A study of Homo sapiens with 6 samples.

Results

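Nuclear tRNA genes were examined in CUT&Tag peak lists of CTCF and SMC1 from IMR90 cells. The members were RefSeq genes on chromosomes 1 to 22 of GRCh38 that carried the tRNA biotype or a tRNA gene symbol such as TRA-AGC1-1. They numbered 498 of 56080 RefSeq genes on these chromosomes, 425 of biotype tRNA and 73 annotated as pseudogenes. Each gene was extended by 500 bp on both sides and overlapping stretches were merged, which gave 415 tRNA regions. The merged regions had a median length of 1073 bp, and 60 of them held 2 or more tRNA genes. A region was called clustered when one of its genes had another tRNA gene within 10 kb and isolated otherwise, which gave 236 clustered and 179 isolated regions.

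IMR90 are human fetal lung fibroblasts, and the study compared control cells, ICM-treated cells (inflachromene, which binds the chromatin proteins HMGB1 and HMGB2) and cells driven to replicative senescence. Sample titles give p numbers of 21 (control), 16 (ICM) and 34 (senescent) for the CTCF libraries and of 16, 16 and 34 for the SMC1 libraries. The CTCF library of ICM-treated cells was labelled with 6 days of treatment, no time was given for the SMC1 library, and both libraries of p 34, whose titles state no condition, were assigned to senescence by the series design. All 6 titles begin with the same code, which the labels do not explain and which differs from the code of the IMR90 isolate named in the methods. Each of the 6 groups had 1 library, so conditions were described and not tested, and condition cannot be told apart from culture, library or sequencing depth, which is unknown here.

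Transfer RNA genes are short and are transcribed by RNA polymerase III. Their promoter lies inside the gene, as an A box near the start and a B box farther in, which are bound together by the factor TFIIIC. CTCF is a DNA-binding insulator protein, and SMC1 is a subunit of the cohesin ring that holds chromatin loops. Transfer RNA genes and TFIIIC sites have themselves been described as insulator elements and as sites where SMC complexes are found.

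Sequence was at hand for the 14 tRNA genes that lay whole inside a RefSeq promoter window (250 bases before to 50 bases after a gene start, build GRCh38.p14). They are shown because some were identical in sequence and differed in peaks. In the lines that follow, capitals mark the A box, where a match to its consensus was found near the gene's 5′ end, and then the B box core, which was GGTTCGA or, where that was absent, GGTTCAA. The first pair are histidine tRNA genes, of which TRH-GTG1-9 (chr15:45201151-45201222, plus strand) lay in a region with a peak in all 6 lists and TRH-GTG1-3 (chr1:148281365-148281436, plus strand) in a region with none.
TRH-GTG1-9: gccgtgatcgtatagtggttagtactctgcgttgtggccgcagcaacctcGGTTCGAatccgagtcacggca
TRH-GTG1-3: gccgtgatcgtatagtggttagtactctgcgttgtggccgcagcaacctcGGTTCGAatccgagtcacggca
The next pair are proline tRNA genes. TRP-TGG3-2 (chr14:20684016-20684087, plus strand) lay in a region with a peak in 5 lists, and TRP-TGG3-5 (chr16:3188094-3188165, plus strand) in a region with a peak in SMC1 of senescent cells alone.
TRP-TGG3-2: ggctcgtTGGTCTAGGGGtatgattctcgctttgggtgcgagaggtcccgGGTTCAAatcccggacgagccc
TRP-TGG3-5: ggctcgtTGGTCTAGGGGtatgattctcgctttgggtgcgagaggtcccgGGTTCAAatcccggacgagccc
The 3 genes TRR-ACG2-1 (chr3:45688999-45689071, minus strand), TRF-GAA1-5 (chr13:94549650-94549722, minus strand) and TRG-CCC2-2 (chr16:636736-636806, minus strand) lay in regions with SMC1 peaks in all 3 conditions and no CTCF peak, and TRL-AAG2-2 (chr6:28943622-28943703, minus strand) in a region with no peak in any list.
TRR-ACG2-1: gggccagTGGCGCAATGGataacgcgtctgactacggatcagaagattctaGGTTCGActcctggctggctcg
TRF-GAA1-5: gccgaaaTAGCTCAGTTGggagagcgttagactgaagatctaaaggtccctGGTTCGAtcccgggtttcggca
TRG-CCC2-2: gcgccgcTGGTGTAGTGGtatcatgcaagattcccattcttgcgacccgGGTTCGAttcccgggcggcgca
TRL-AAG2-2: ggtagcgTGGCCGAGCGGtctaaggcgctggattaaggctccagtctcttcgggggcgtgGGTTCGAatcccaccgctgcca
Both histidine genes were the same over all 72 bases, and so were both proline genes over their 72 bases. Copies with the same sequence thus lay in regions that differed in their peaks. They also lay in promoter windows of different genes. These were SHF for TRH-GTG1-9, LINC01731 for TRH-GTG1-3, ANG for TRP-TGG3-2 and OR1F1 for TRP-TGG3-5. Of all tRNA regions within 1 kb of a protein-coding 5′ end, 92.1% had a peak in any list, against 24.1% of those farther away. How the setting of each copy bears on its peaks was not tested. For TRH-GTG1-9 the SMC1 peaks of control and ICM-treated cells ended before the gene, at position 45200888 and 45200838, on the side of its neighbour TRH-GTG1-8, and the SMC1 peak of senescent cells reached into the gene, to position 45201168. Reads that fall inside such copies can fit more than one place, and how the authors placed them is not given in the sources used here.

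Across the 69 promoter windows that overlapped a tRNA region, the B box core GGTTCGA, searched on both strands, occurred in 20.3% against 0.863% of all 33725 windows. The B box is part of the tRNA gene, so this excess was given by the choice of windows. Only 14 windows held a whole tRNA gene, and 9 of these (64.3%) had the core. A core of the CTCF motif (AGGGGGC or AGGTGGC, both strands) occurred in 20.3% of the 69 windows against 19.9% of all windows. The 48 windows that overlapped a tRNA region with a peak in any list had a median GC content of 61.8% (quartiles 55.3 to 66.4) and a median of 24 CpG dinucleotides. The 21 windows at tRNA regions without a peak had 50% GC (44.3 to 55.0) and 15 CpG dinucleotides, beside 58.7% and 14 in all windows. All of these windows stand at gene starts, so they are a small and selected portion of the tRNA regions.

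The number of tRNA regions that overlapped a peak by at least 1 bp was counted in each list. CTCF peaks lay at 43 of 415 regions in control cells (10.4%, 95% Clopper-Pearson interval 7.60 to 13.7), at 68 in ICM-treated cells (16.4%, 13.0 to 20.3) and at 44 in senescent cells (10.6%, 7.81 to 13.97). SMC1 peaks lay at 72 regions in control cells (17.3%, 13.8 to 21.3), at 108 in ICM-treated cells (26.0%, 21.9 to 30.5) and at 72 in senescent cells (17.3%). Both antibodies thus marked more tRNA regions in the ICM-treated library than in either other library. In lists of equal length this order held for SMC1 (69, 89 and 72 regions by total and 63, 83 and 72 by highest signal), but for CTCF it held by total signal (43, 50 and 30) and turned between control and ICM by highest signal (43, 34 and 21). At least 1 list had a peak at 126 regions (30.4%), and 289 regions had none in any list. The intervals cover counting over regions only and not the variation between cultures.

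Other places in the genome were counted by the same rule. Of all 1 kb windows, 0.488%, 0.753% and 0.676% held a CTCF peak in control, ICM-treated and senescent cells, and 1.03%, 1.13% and 0.948% held an SMC1 peak. Among 2817 regions of other small RNA genes of up to 200 bp, the shares were 3.12%, 4.22% and 3.09% for CTCF and 6%, 5.22% and 4.72% for SMC1. Among 18783 protein-coding 5′ ends, extended by 500 bp like the tRNA genes, they were 10.4%, 15% and 10.6% for CTCF and 32.9%, 28.6% and 23.7% for SMC1. The tRNA regions thus stood at the level of protein-coding 5′ ends for CTCF, below it for SMC1, and above other small RNA genes for both antibodies. From control to ICM the SMC1 share went up at tRNA regions and down at protein-coding 5′ ends.

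**Figure D1:**
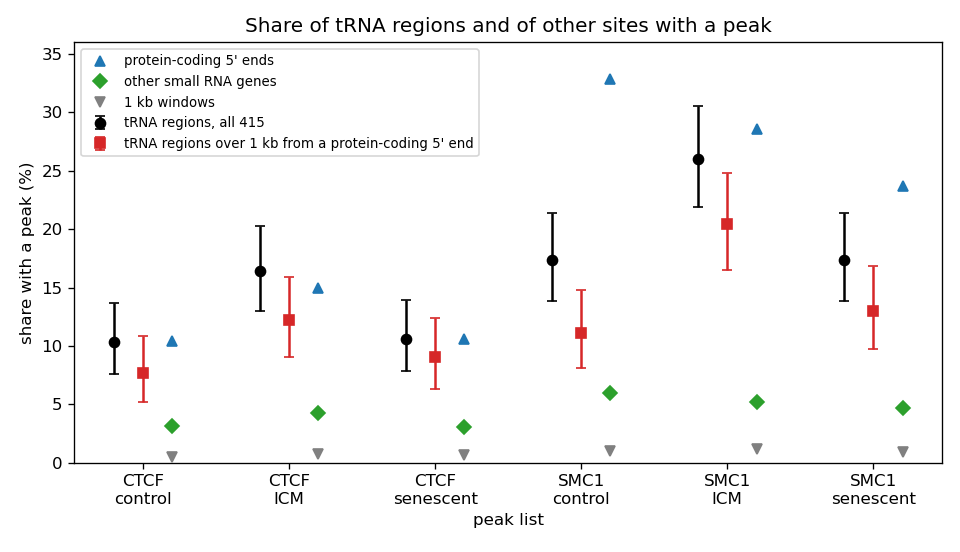
The plot gives, for each of the 6 peak lists on the x axis, the share of sites with a peak in percent on the y axis; black circles are all 415 tRNA regions, red squares the 377 over 1 kb from a protein-coding 5′ end, bars are 95% Clopper-Pearson intervals, and the other symbols are the background sites. The SMC1 share of tRNA regions is highest in the ICM list, at 26.0%, while that of protein-coding 5′ ends is highest in control, at 32.9%.

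Promoters close by were counted because 38 of the 415 tRNA regions lay within 1 kb of a protein-coding 5′ end. Of these 38, 78.9%, 81.6% and 60.5% held an SMC1 peak in control, ICM-treated and senescent cells, and 36.8%, 57.9% and 26.3% a CTCF peak. The 377 regions farther away held SMC1 peaks in 11.1%, 20.4% and 13.0% and CTCF peaks in 7.69%, 12.2% and 9.02%. The difference between near and far was 67.8 percentage points for SMC1 in control cells (Newcombe interval 52.1 to 78.2) and 29.1 points for CTCF (15.3 to 45.2). Without the near regions, SMC1 in ICM-treated cells still marked 77 regions against 42 in control and 49 in senescent cells. Only 57 of the 415 regions had a tRNA gene inside an annotated protein-coding gene, and their SMC1 shares of 24.6%, 28.1% and 17.5% stood beside 16.2%, 25.7% and 17.3% of the 358 others. Over 1 kb from protein-coding 5′ ends the shares were 12.8%, 17.02% and 10.6% inside genes and 10.9%, 20.9% and 13.3% outside, so the order turned for ICM-treated and senescent cells. Whether such genes lie in an exon or an intron was not examined.

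Regions of tRNA pseudogenes carried no peaks. None lay at the 67 regions that held tRNA pseudogenes alone, in any of the 6 lists, which allows a share of up to 4.48% in each by the limit of 3 counts and of up to 5.36% by the Clopper-Pearson interval. The 348 regions with a gene of biotype tRNA held an SMC1 peak in ICM-treated cells in 31.0% (26.2 to 36.2). Counted by gene, 170 of 425 tRNA genes (40.0%) and 1 of 73 pseudogenes had a peak in any list, and that pseudogene shared its region with a tRNA gene. The median distance to the nearest protein-coding 5′ end was 56267 bp for the pseudogene regions and 26161.5 bp for the others, and 0 of the pseudogene regions lay within 1 kb of one. How much of the difference goes with that distance was not tested.

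Clustered and isolated tRNA regions were compared next. A peak in any list lay at 71 of 236 clustered (30.1%) and 55 of 179 isolated regions (30.7%), but among regions with a gene of biotype tRNA it lay at 71 of 222 clustered (32.0%) and 55 of 126 isolated regions (43.7%). The CTCF shares of clustered and isolated regions stood at 9.32% and 11.7% for the control list, at 15.7% and 17.3% for the ICM list and at 9.75% and 11.7% for the senescent list. The SMC1 shares were 14.4% and 21.2%, 26.7% and 25.1%, and 18.2% and 16.2%. The widest gap, in SMC1 of control cells, was -6.82 points for clustered minus isolated (Newcombe interval -14.5 to 0.538), and the intervals of all 6 differences included 0. In SMC1 of ICM-treated cells the difference was 1.56 points (-7.05 to 9.88), so a difference of several points in either direction was not detectable with these numbers.

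**Figure D2:**
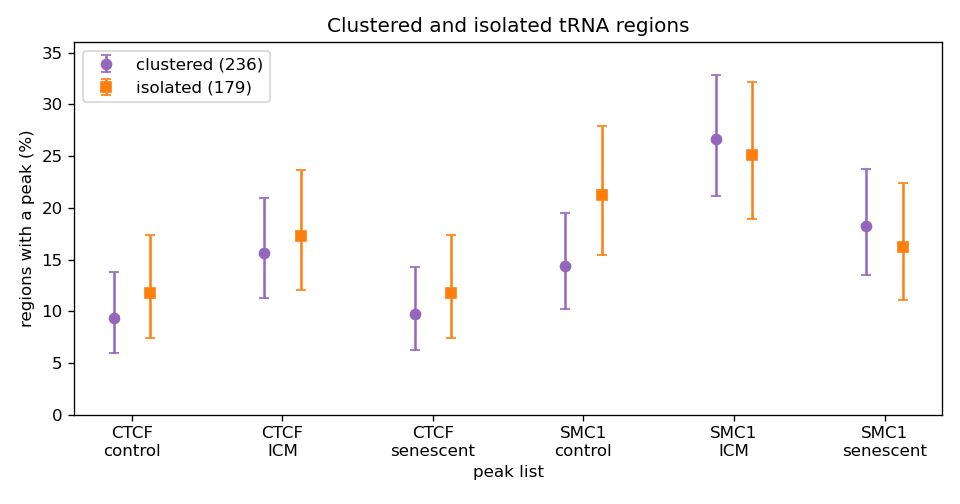
The share of regions with a peak (y axis, percent) is drawn for the 236 clustered (circles) and the 179 isolated tRNA regions (squares) in each of the 6 lists, with 95% Clopper-Pearson intervals as bars. The intervals of both classes overlap in every list.

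The classes differed in what they held. Of the 67 regions of pseudogenes alone, 53 were isolated and 14 clustered, and 23 isolated against 15 clustered regions lay within 1 kb of a protein-coding 5′ end. Among regions with a gene of biotype tRNA, SMC1 in control cells was at fewer clustered than isolated regions by -14.8 points (-24.3 to -5.79), and the other 5 differences were also below 0 with intervals that included 0. Among regions over 1 kb from a protein-coding 5′ end, the SMC1 difference was -1.77 points in control, 6.41 points (-1.94 to 14.2) in ICM-treated and 3.58 points in senescent cells. The direction also followed the distance that defines a cluster, since all 6 differences were above 0 at 5 kb (0.711 to 7.53 points) and all 6 below 0 at 50 kb (-16.1 to -4.72).

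Groups of tRNA genes differed by their size. The 90 regions in runs of 5 or more genes held CTCF peaks in 3.33%, 8.89% and 5.56% in control, ICM-treated and senescent cells, and SMC1 peaks in 11.1%, 25.6% and 16.7%. The 146 regions in runs of 2 to 4 genes held CTCF peaks in 13.0%, 19.9% and 12.3% and SMC1 peaks in 16.4%, 27.4% and 19.2%. In ICM-treated cells the long runs thus had SMC1 about as often as the short ones and CTCF less often in these counts, a difference that was not tested. The 60 merged regions of 2 or more genes held SMC1 peaks in 41.7%, 56.7% and 45.0% against 13.2%, 20.8% and 12.7% of the 355 regions of 1 gene, but they are also longer and so have more bases for a peak to touch.

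The 5 runs with the most genes differed in their peaks. The largest, chr1:161440171-161480636, has 24 genes in 10 regions, in which glycine, aspartate, leucine and glutamate genes recur in the same order, and no list had a peak there. The run at chr16:3150674-3196225 has 17 genes in 15 regions, all of them proline, lysine or arginine genes. It held CTCF peaks at 0, 3 and 0 regions and SMC1 peaks at 4, 7 and 4 regions in control, ICM-treated and senescent cells, and was thus not poor in SMC1 beside the other tRNA regions. The run at chr6:26299677-26331515, with 12 genes in 8 regions, held a CTCF peak at 1 region and SMC1 peaks at 2 regions in every condition. No list had a peak in the 8 regions of the run at chr6:27273960-27298077, and that at chr6:28710589-28747816 held an SMC1 peak in ICM-treated cells at 1 of its 7 regions and no other. These last 2 runs were tied at 8 genes with 2 more. Of those, chr6:28789770-28823389 also held 1 SMC1 peak in ICM-treated cells alone, whereas chr11:59550629-59566452 held SMC1 peaks at 2, 3 and 1 of its 4 regions and CTCF peaks at 0, 1 and 1. Near-identical copies within a run share sequence, and whether reads were lost there was not tested.

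Chromosomes differed in the share of their tRNA regions with a peak. On chromosome 17, 13 of 18 regions had a peak in any list, and on chromosome 16 this was 16 of 25. Chromosome 14 had 7 of 18, chromosome 6 had 32 of 146 and chromosome 1 had 14 of 85. The remaining chromosomes together had 44 of 123. Chromosomes 4, 18, 20, 21 and 22 had no peak at any of their few tRNA regions. Other sites were not counted chromosome by chromosome, and neither were pseudogene regions or regions near protein-coding 5′ ends. Whether these differences are particular to tRNA regions was not tested.

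The long group of tRNA genes on chromosome 6, next to the histone genes, held 134 regions over 2.7 Mb (chr6:26286026-28989583, gaps of at most 1 Mb). It was singled out after its values were seen. SMC1 peaks lay at 5 of its regions in the control list, at 22 in the ICM list and at 10 in the senescent list, and CTCF peaks at 6, 12 and 8. The 53 protein-coding 5′ ends within the same span went the other way for SMC1, with 20, 10 and 12. Of the 129 regions there without a control SMC1 peak, 18 had one in ICM-treated cells (13.95%, 8.48 to 21.2), beside 23 of 214 tRNA regions elsewhere (10.7%, 6.94 to 15.7). The intervals of both shares overlap, but no interval of their difference was computed. The overlap thus does not show that the group and the other tRNA regions gained alike.

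The tRNA regions were then followed from control to each other condition. For CTCF, all 43 regions with a control peak also had one in ICM-treated cells, and 25 of 372 regions without one (6.72%) gained it. At protein-coding 5′ ends 94.9% were kept and 5.73% gained. In senescent cells 37 of 43 regions (86.0%) were kept and 7 of 372 (1.88%) gained, beside 78.6% and 2.75% of protein-coding 5′ ends. The CTCF rates at tRNA regions were thus near those of promoters.

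More regions gained SMC1. From control to ICM, 67 of 72 regions kept their peak (93.1%, 84.5 to 97.7) and 41 of 343 gained one (12.0%, 8.72 to 15.9), beside 78.2% kept and 4.24% gained at protein-coding 5′ ends. From control to senescent cells, 53 of 72 were kept (73.6%) and 19 of 343 gained (5.54%), beside 63.7% and 4.16%. Clustered regions gained an SMC1 peak upon ICM treatment in 31 of 202 cases (15.3%, 10.7 to 21.1) and isolated regions in 10 of 141 (7.09%, 3.45 to 12.7). The intervals of these shares overlap, but no interval of their difference was computed, so the overlap does not show that both classes gained alike. Of the gained regions, 38 of 41 lay over 1 kb from a protein-coding 5′ end, as did 335 of the 343 that could gain, so the gain was 3 of 8 near 5′ ends and 38 of 335 (11.3%) farther away. The ICM list was also the longest SMC1 list, and in lists of equal length the ICM gain was 8.09% by total and 8.24% by highest signal, beside 2.69% and 1.75% at protein-coding 5′ ends. The gain in senescent cells was then 6.07% and 7.10%, beside 4.96% and 6.497%, so ICM-treated and senescent cells lay closer together than on the complete lists.

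By condition, 37 regions held CTCF in all 3 lists, 6 in control and ICM, 5 in ICM and senescent, 20 in ICM alone and 2 in senescent cells alone. None held CTCF in control alone or in control and senescent cells without ICM. For SMC1, 52 regions were in all 3 lists, 15 in control and ICM, 16 in ICM and senescent, 25 in ICM alone, 4 in control alone, 3 in senescent cells alone and 1 in control and senescent cells. Of the 16 regions in ICM and senescent lists but not control, 14 were clustered, beside 202 of all 343 regions without a control SMC1 peak.

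Regions of the condition classes were named by their total-signal percentile, which is the rank of a peak's summed coverage within its own list, with 100 at the top. Among regions with an SMC1 peak in ICM alone, TRK-CTT4-1/TRP-AGG1-1 (chr16:3191001-3192560) stood at percentile 81.1, TRK-CTT2-4 (chr6:26556046-26557118), a lysine gene, at 79.1 and TRS-TGA2-1 (chr6:27545189-27546270), a serine gene, at 77.0. No CTCF list held a peak at any of these 3 regions. For SMC1 in ICM and senescent cells, TRP-CGG1-2 (chr16:3171548-3172619) stood at percentiles 90.4 and 77.4, TRK-TTT4-1/TRX-CAT1-6 (chr6:27591314-27593392) at 85.0 and 33.2, and TRV-AAC1-3 (chr5:181169110-181170182) at 83.3 and 50.5. These were all clustered, and 2 of the 6 lie in the chromosome 16 run of 17 genes.

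The SMC1 peaks of the other classes ranked lower or lay off the gene. In control alone, TRP-TGG3-3 stood at 74.8 with its summit 1574.5 bp from the gene midpoint, TRX-CAT1-2 at 44.5 and TRR-TCT3-1 at 35.3. The TRP-TGG3-3 peak (chr16:3157082-3158944) had its summit 58 bp from the midpoint of a neighbouring tRNA gene. The ICM and senescent lists held SMC1 peaks that overlapped it (chr16:3156926-3157813 and chr16:3156693-3158140) but ended before the TRP-TGG3-3 region. In senescent cells alone, TRT-TGT5-1 stood at 94.2 with its summit 944 bp away, TRP-TGG3-5 at 37.1 and TRV-AAC1-1 at 3.37. The TRT-TGT5-1 peak (chr14:20682261-20685172) touched only the edge of its region, which ends at position 20682262. It overlapped SMC1 peaks of control (chr14:20684055-20685205) and ICM-treated cells (chr14:20682395-20683826), which missed that region. These leading regions thus ranged from near the top to near the bottom of their lists.

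For CTCF in ICM alone the leading regions were TRI-AAT5-4 at 85.6, TRT-CGT2-1 (chr16:14285393-14286464) at 59.2 and TRA-AGC11-1 at 55.8. The TRI-AAT5-4 peak had its summit 2797.5 bp from the gene in a region 341 bp from the ZNF839 5′ end, whereas that at TRT-CGT2-1 was 114.5 bp from the gene midpoint. TRT-CGT2-1, a threonine gene, also held SMC1 peaks at 90.6, 96.8 and 88.5 in control, ICM-treated and senescent cells. For CTCF in ICM and senescent cells the leading regions were TRL-TAG3-1 at 38.3 and 54.4, TRK-TTT3-1/TRK-TTT3-2 at 27.4 and 5.39, and TRS-AGA2-5 at 21.4 and 14.9. TRQ-TTG3-3 (33.9) and TRK-CTT1-2 (9.85) were the only regions with CTCF in senescent cells alone. These CTCF gains were thus mostly peaks of middle or low rank.

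A set of 27 regions held a peak in all 6 lists. Of these, 15 were clustered, 12 isolated, and 8 lay within 1 kb of a protein-coding 5′ end. The highest ranked was the pair of leucine genes TRL-CAG2-1/TRL-CAG2-2 (chr16:57299451-57301062), 15279 bp from the nearest protein-coding 5′ end. Its CTCF peaks stood at percentiles 97.8, 98.2 and 99.2 in control, ICM-treated and senescent cells, and its SMC1 peaks at 99.9, 99.96 and 99.9. The summits of all 6 peaks were between 141 and 175 bp from the nearest gene midpoint. This region ranked near the top of every list, whichever protein was profiled.

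The isoleucine gene TRI-TAT1-1 (chr19:39411668-39412760) stood at 98.9, 99.6 and 98.3 for CTCF and 99.2, 98.8 and 98.9 for SMC1, and lay 409 bp from the 5′ end of PLEKHG2. The glutamate gene TRE-TTC2-1 (chr13:44917427-44918498), 71473 bp from a protein-coding 5′ end, stood at 97.9, 98.1 and 96.1 for CTCF and 99.0, 99.3 and 93.3 for SMC1. TRU-TCA1-1 (chr19:45478101-45479187) encodes the tRNA for selenocysteine, the amino acid inserted at selected stop codons. It stood at 98.0, 99.1 and 99.1 for CTCF and 91.8, 97.3 and 96.5 for SMC1, with CTCF summits 252 bp from the gene midpoint in control and ICM-treated cells and 2 bp in senescent cells. These 3 were isolated genes of different amino acids and held high ranks for both proteins.

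The next regions ranked high for SMC1 and, in most conditions, lower for CTCF. TRD-GTC2-10/TRA-TGC4-1 (chr12:124939147-124940537) stood at 95.2, 97.2 and 78.8 for CTCF and at 98.4, 99.8 and 97.5 for SMC1. TRT-AGT1-3 (chr19:33176557-33177630) stood at 89.3, 95.5 and 92.0 and at 98.5, 99.5 and 86.1. TRL-AAG2-4 (chr16:22296640-22297721), 188 bp from the 5′ end of POLR3E, which encodes a subunit of RNA polymerase III, stood at 73.7, 81.4 and 89.9 and at 97.6, 98.8 and 95.9. Over these first 7 regions the SMC1 peak of ICM-treated cells ranked between 97.3 and 99.96.

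The next 3 by mean rank were TRP-AGG2-6/TRT-TGT3-1 (chr14:20612901-20614362), TRK-TTT3-5/TRQ-CTG1-5/TRL-TAG1-1/TRR-TCT2-1 (chr17:8118655-8121512) and TRX-CAT1-8 (chr17:82494221-82495292). The proline and threonine pair stood between 84.1 and 92.1 for CTCF and between 86.0 and 95.6 for SMC1. The chromosome 17 region of 4 genes lay 239 bp from the ALOXE3 5′ end and stood at 97.5, 97.7 and 82.9 for CTCF and at 78.2, 81.5 and 92.4 for SMC1. TRX-CAT1-8, an initiator methionine gene, stood at 74.95, 86.5 and 94.7 for CTCF and 90.4, 97.2 and 82.5 for SMC1.

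**Figure D3:**
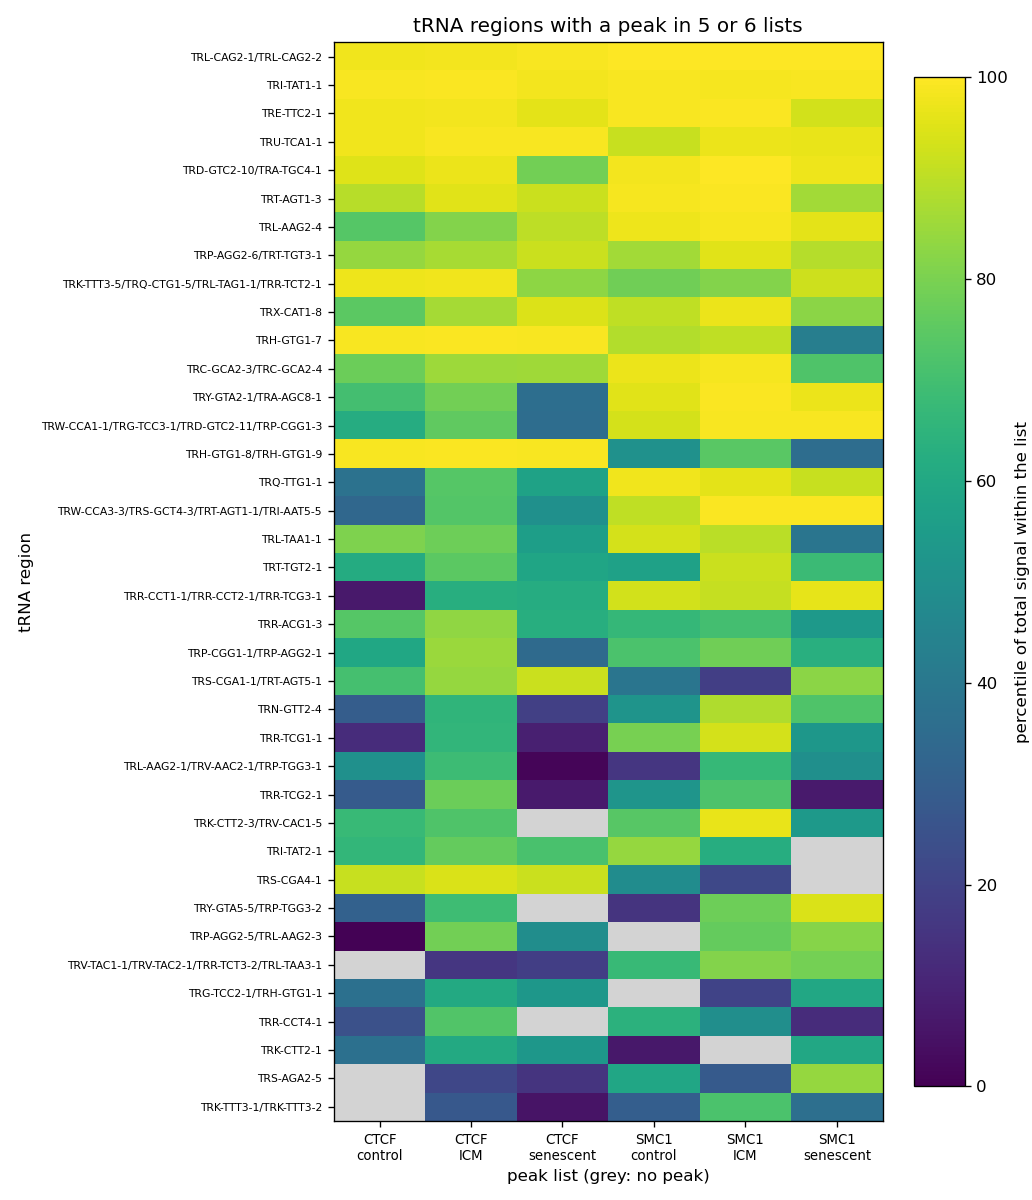
Each row is 1 of the 38 tRNA regions with a peak in 5 or 6 lists and each column a peak list; colour gives the percentile of total signal within that list (0 to 100) and grey marks no peak. The upper rows are bright across all columns, while regions such as TRR-CCT1-1/TRR-CCT2-1/TRR-TCG3-1 are high for SMC1 (93.2, 91.4 and 96.2) and low for CTCF in control (6.77).

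All 3 CTCF lists held a peak at 37 regions, which are listed by chromosome. The tRNA regions were themselves unevenly spread, with 18 of all 415 on chromosome 17, 146 on chromosome 6 and 85 on chromosome 1. Chromosome 17 had TRK-TTT3-5/TRQ-CTG1-5/TRL-TAG1-1/TRR-TCT2-1, TRS-CGA1-1/TRT-AGT5-1, TRW-CCA3-3/TRS-GCT4-3/TRT-AGT1-1/TRI-AAT5-5, TRW-CCA1-1/TRG-TCC3-1/TRD-GTC2-11/TRP-CGG1-3, TRC-GCA2-3/TRC-GCA2-4, TRQ-TTG1-1, TRR-CCT1-1/TRR-CCT2-1/TRR-TCG3-1 and TRX-CAT1-8. Chromosome 6 had TRR-TCG2-1, TRY-GTA6-1, TRQ-CTG1-2, TRV-AAC1-5, TRQ-CTG6-1, TRA-AGC2-1 and TRL-TAA1-1. Chromosome 1 had TRG-TCC2-1/TRH-GTG1-1, TRK-CTT2-1, TRP-CGG1-1/TRP-AGG2-1 and TRT-TGT2-1, and chromosome 19 had TRT-AGT1-3, TRI-TAT1-1 and TRU-TCA1-1. Chromosome 14 had TRP-AGG2-5/TRL-AAG2-3, TRP-AGG2-6/TRT-TGT3-1 and TRR-ACG1-3, and chromosome 15 had TRH-GTG1-7, TRH-GTG1-8/TRH-GTG1-9 and TRR-TCG1-1. The others were TRY-GTA2-1/TRA-AGC8-1 and TRI-TAT2-1 on chromosome 2, TRL-AAG2-1/TRV-AAC2-1/TRP-TGG3-1 on 5, TRS-CGA4-1 and TRD-GTC2-10/TRA-TGC4-1 on 12, TRN-GTT2-4 and TRE-TTC2-1 on 13, and TRL-AAG2-4 and TRL-CAG2-1/TRL-CAG2-2 on 16.

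The histidine genes on chromosome 15 share 1 CTCF peak. TRH-GTG1-7 (chr15:45198106-45199177) and TRH-GTG1-8/TRH-GTG1-9 (chr15:45199913-45201722), both within the annotated SHF gene, were covered by a single CTCF peak at percentile 99.1, 99.4 and 99.2 of the control, ICM and senescent lists, which was 3805, 3693 and 3570 bp wide. Its summit lay between 138.5 and 179.5 bp from TRH-GTG1-7 and between 1627.5 and 1668.5 bp from the other pair. For SMC1 each region had its own peak, at 88.3, 90.5 and 42.7 for TRH-GTG1-7 and at 50.6, 74.3 and 35.9 for the pair. The CTCF peak at TRH-GTG1-9, one of the identical genes printed above, thus had its summit at its neighbour.

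Few regions held CTCF without SMC1 in any condition, and most of these were on chromosome 6. A CTCF peak in any list lay at 70 regions and an SMC1 peak in any list at 116, with 10 regions for CTCF without SMC1 in any condition and 56 for SMC1 without CTCF. Of the 10, 7 were on chromosome 6, beside 14 of the 70 regions with CTCF and 146 of all 415 tRNA regions. All 5 regions with CTCF in the 3 conditions and SMC1 in none (TRY-GTA6-1, TRQ-CTG1-2, TRV-AAC1-5, TRQ-CTG6-1 and TRA-AGC2-1) were there. The CTCF peak at TRQ-CTG6-1 (chr6:27790856-27791927) ranked at 82.0, 89.9 and 90.6, with its summit 887.5, 888.5 and 943.5 bp from the gene. At TRY-GTA6-1 the summit was 963, 953 and 953 bp away and at TRV-AAC1-5 1050, 943 and 1050 bp, so at these 3 the CTCF summit fell outside the tRNA region. At TRQ-CTG1-2 it was 215.5, 343.5 and 586.5 bp away and at TRA-AGC2-1 315.5, 502.5 and 541.5 bp. In senescent cells the summits at TRQ-CTG1-2 and TRA-AGC2-1 also fell outside the region, at 551 and 506 bp from the gene.

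SMC1 in all 3 conditions without any CTCF peak was seen at 10 regions. They were TRE-TTC4-1, TRL-CAA4-1/TRE-CTC2-1, TRR-ACG2-1, TRQ-TTG3-1/TRQ-TTG3-2/TRS-TGA3-1/TRX-CAT1-3, TRD-GTC2-8, TRF-GAA1-5, TRQ-CTG1-4, TRG-CCC2-2, TRM-CAT2-1 and TRN-GTT2-5. Of these, 5 lay within 1 kb of a protein-coding 5′ end and 1 on chromosome 6. At TRE-TTC4-1 (chr1:16534779-16535850) the SMC1 peak stood at 60.4, 85.5 and 39.6. The summits there were 261.5, 262.5 and 284.5 bp from the gene midpoint.

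Within a condition, regions with CTCF mostly had SMC1 as well. In control cells 35 regions held both, which was 81.4% of the CTCF regions and 48.6% of the SMC1 regions. In ICM-treated cells 56 held both (82.4% and 51.9%) and in senescent cells 35 (79.5% and 48.6%). Among protein-coding 5′ ends, 83.2%, 75.8% and 69.4% of those with CTCF had SMC1, and 26.3%, 39.8% and 31.1% of those with SMC1 had CTCF. Where both were present at a tRNA region, their summits lay a median of 228, 150 and 189 bp apart.

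Peaks at tRNA regions ranked higher by total signal than by peak height. The 40, 63 and 43 distinct CTCF peaks had median total-signal percentiles of 64.0 (interval of the median 37.7 to 74.95), 66.3 (59.2 to 75.6) and 58.8 (49.2 to 85.6) in control, ICM-treated and senescent cells, but median percentiles of highest signal of 32.8, 31.0 and 35.2. The 75, 112 and 74 SMC1 peaks had 65.6 (57.1 to 77.5), 70.6 (59.1 to 77.3) and 63.0 (53.0 to 72.6) by total signal and 40.1, 61.3 and 49.7 by highest signal. The peaks were also wide, with CTCF medians of 2199, 2266 and 1356 bp against 1797, 1960.5 and 1120 bp over the whole lists. SMC1 medians were 1111, 804 and 1171 bp against 911, 754 and 1005 bp. By total signal, the intervals for CTCF in control and senescent cells include the middle of the list. By height, the SMC1 median of ICM-treated cells was above the middle, but its interval (47.6 to 71.7) reached the whole-list median of 47.6. Peaks at other small RNA genes had similar widths, with CTCF medians of 2109, 2518 and 1448 bp and SMC1 medians of 1079.5, 937.5 and 1194 bp, so the width was not particular to tRNA regions. At protein-coding 5′ ends the median total-signal percentiles were between 56.6 and 61.8, and those of highest signal between 41.0 and 52.9. Peaks at other small RNA genes had total-signal medians of 49.4, 57.1 and 57.0 for CTCF and 65.1, 64.4 and 56.5 for SMC1. By highest signal their medians were 31.7, 38.2 and 39.5 for CTCF and 52.9, 47.6 and 49.7 for SMC1. A higher rank by total signal than by height was thus not particular to tRNA regions.

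Summits of SMC1 peaks lay close to the tRNA gene. The median distance from the summit, taken as the midpoint of the stretch of highest signal, to the nearest gene midpoint was 149, 133.25 and 198.25 bp for SMC1 and 257, 188.5 and 251 bp for CTCF. Within 250 bp lay 76.0%, 79.5% and 66.2% of SMC1 summits and 47.5%, 60.3% and 48.8% of CTCF summits. At other small RNA genes the SMC1 medians were 424, 462.25 and 465 bp, with 30.8%, 27.9% and 28.1% within 250 bp, and the CTCF medians 798.5, 819.75 and 699.75 bp. Few summits were inside the gene itself, with 6, 6 and 5 of the SMC1 and 3, 4 and 2 of the CTCF summits. In clustered regions 88.9%, 87.9% and 77.8% of SMC1 summits lay within 250 bp of a gene midpoint. In isolated regions these shares were 64.1%, 67.4% and 48.3%. Whether this difference goes with the number of genes in a region was not tested. The strand of most tRNA genes was not at hand, so upstream and downstream were not separated.

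**Figure D4:**
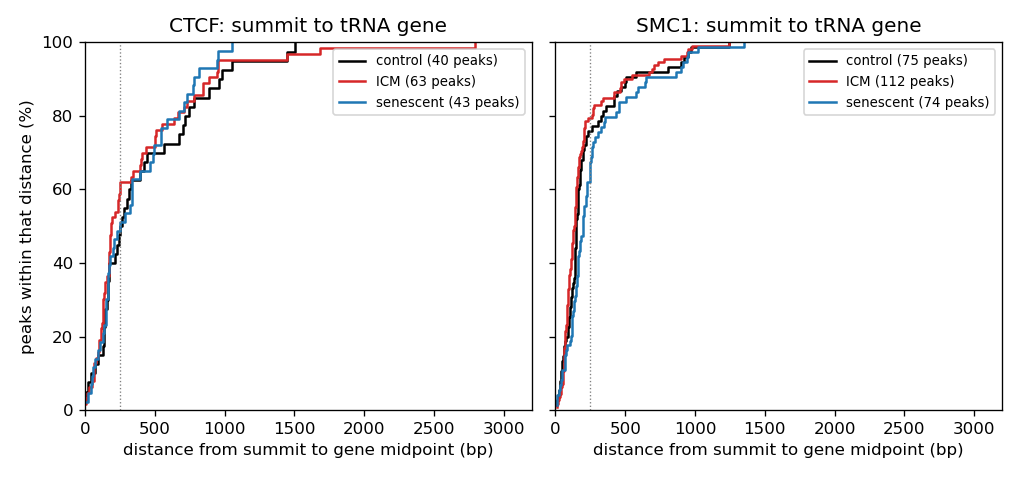
The curves give the percent of peaks (y axis) at tRNA regions whose summit lies within a given distance of the nearest tRNA gene midpoint (x axis, bp), for CTCF on the left and SMC1 on the right, with 1 line per condition and a dotted line at 250 bp. SMC1 curves rise sooner, reaching 76.0%, 79.5% and 66.2% at that distance.

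The amino acid families were counted by gene over the 425 genes of biotype tRNA, where a gene was counted when a peak in any list touched it or its 500 bp flanks. Proline genes stood highest, with 17 of 20 (85.0%), followed by histidine with 6 of 9 (66.7%), arginine with 17 of 26 (65.4%) and initiator methionine with 5 of 8 (62.5%). Selenocysteine had 1 of 2 and threonine 10 of 20. Families between 36.4% and 46.7% were glutamate (7 of 15), isoleucine (9 of 20), lysine (12 of 27), glutamine (8 of 19), valine (12 of 29), leucine (13 of 32), serine (10 of 26), tyrosine (5 of 13), phenylalanine (4 of 11) and elongator methionine (4 of 11). The lowest were asparagine (6 of 21), tryptophan (2 of 7), aspartate (3 of 13), alanine (8 of 37), glycine (6 of 30) and cysteine (5 of 29).

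Proline genes carried SMC1 at 9, 15 and 9 of 20 and CTCF at 7, 10 and 6 in control, ICM-treated and senescent cells. Phenylalanine genes had SMC1 at 2, 4 and 2 of 11 and CTCF at none in any condition. Cysteine genes had SMC1 at 3, 4 and 3 of 29 and CTCF at 2, 4 and 2. Families thus differed in how many genes were marked, but genes of a family share neighbours and sequence and were not independent. In 17 of the 22 families SMC1 marked more genes in ICM-treated than in control cells, and in 5 it marked as many.

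**Figure D5:**
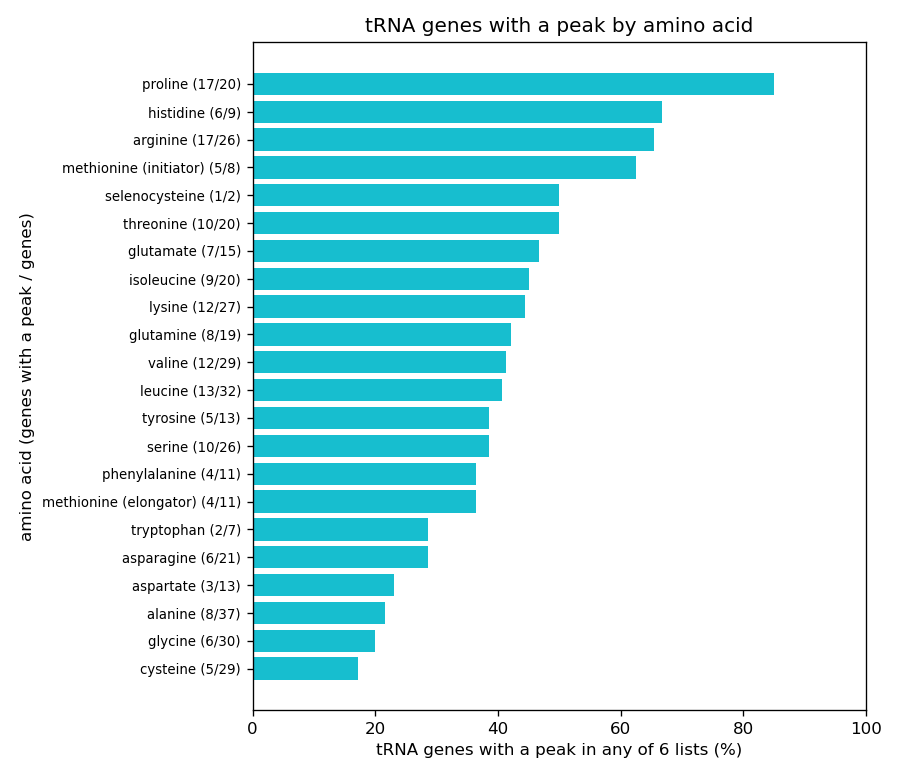
Bars give the percent of tRNA genes with a peak in any of the 6 lists (x axis) for each amino acid (y axis), with the number of genes with a peak and of all genes of biotype tRNA in brackets. Proline is at the top with 85.0% and cysteine at the bottom with 17.2%.

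Other RNA polymerase III genes and the genes of its machinery were counted for comparison. Of 20 other genes transcribed by this polymerase, CTCF marked 4, 7 and 5 (20%, 35% and 25%) in control, ICM-treated and senescent cells. SMC1 marked 10, 10 and 6 (50%, 50% and 30%). Regions of other small RNA genes stood at 3.12%, 4.22% and 3.09% for CTCF and at 6%, 5.22% and 4.72% for SMC1. RN7SK, which restrains transcription elongation, RMRP, the RNA of RNase MRP, and the signal recognition particle RNA genes RN7SL1 and RN7SL2 had peaks in all 6 lists. None of the 17 annotated 5S rRNA genes, which stand in a tandem array, had a peak. Of 54 protein-coding 5′ ends of RNA polymerase III subunits, its factors and tRNA processing enzymes, CTCF marked 16, 17 and 15 (29.6%, 31.5% and 27.8%). SMC1 marked 37, 43 and 28 of them (68.5%, 79.6% and 51.9%). All protein-coding 5′ ends stood at 10.4%, 15% and 10.6% for CTCF and at 32.9%, 28.6% and 23.7% for SMC1.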

How the data were processed

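CUT&Tag, in which antibody-tethered transposase cuts the DNA around a protein, was used for CTCF and SMC1 in 6 libraries of IMR90. Per the methods and labels, the authors placed reads on hg38 with Bowtie2 2.3.4.1, used Picard 2.20.7, and called peaks in each library by itself with SEACR 1.3 in stringent mode, keeping the top 1% of regions. The methods also describe a CTCF motif filter and E. coli DNA for calibration. The deposited signal values, the coverage summed over a peak and its highest value, were whole numbers. They were used only as ranks within a list, since nothing at hand sets them on 1 scale across lists. The depth behind each list is unknown here.

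The mitochondrial peak of each list was left out. Positions of genes came from RefSeq (GRCh38.p14), whose gene table gives no strand. A strand was found for 18783 of 18973 protein-coding genes (99.0%), first from the RefSeq promoter windows and otherwise from GENCODE by symbol and chromosome. Left out were 14 tRNA genes on scaffolds, 5 on the X chromosome and 22 mitochondrial ones. No hg38 genome sequence was at hand. Shares carry Clopper-Pearson and differences Newcombe intervals at 95%, and intervals of medians come from order statistics. They cover counting only. With 1 library per group no test was run. Counting was checked on simulated lists, with Python 3.11.15, pandas 2.3.3 and scipy 1.17.1.

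Named in the text were the 10 regions with peaks in most lists (ties by mean percentile), the 5 runs with most genes, up to 3 leading regions of each condition class, every amino acid family, and all regions in the 3 CTCF lists. Regions and lists were chosen with earlier results of these data known. Alternatives covered flank, cluster distance, overlap by summit, list length and unit of counting.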

Additional observations from a re-analysis of the deposited data

How the results depend on the processing

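Of 178 recomputed values, 143 stayed close to the reported one (within 1.5 times for a count, within its interval otherwise) and 35 moved. No paired analysis was possible because each group had 1 library and no result came from a test.

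Most counts that moved did so by construction. Counting by gene gave 68 for CTCF control, 69 for CTCF senescent and 110 for SMC1 senescent, with 58 (CTCF) and 80 (SMC1) genes in all 3 lists, and leaving out the flank, which also counts genes, gave 66 for CTCF control. With the summit required inside the region, CTCF control had 28 and 23 regions were in all 3 CTCF lists. With only the 50% of peaks of highest total signal, the counts were 26, 44 and 29 for CTCF in control, ICM and senescent cells and 71 for SMC1 in ICM, with 21 (CTCF) and 32 (SMC1) in all 3 lists, and the CTCF ICM median percentile was 55.9. In lists cut to equal length by highest signal, CTCF ICM had 34 regions, below the 43 of control, CTCF senescent had 21 and all 3 CTCF lists 20, and the CTCF ICM median percentile was 76.4. Over 1 kb from protein-coding 5′ ends, SMC1 control had 42 regions and all 3 SMC1 lists 31.

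Clustered minus isolated turned its sign with the distance that defines a cluster. In SMC1 control it was 0.711 points at 5 kb and -16.1 at 50 kb, and at 50 kb it was -9.58 in SMC1 ICM and -6.77 in SMC1 senescent. In SMC1 senescent it was 10.3 without the flank and 9.19 by gene. Ranked by highest instead of total signal, median percentiles were 32.8, 31.0 and 35.2 for CTCF in control, ICM and senescent cells and 40.1 and 49.7 for SMC1 in control and senescent cells. The cause of these shifts was not tested. Equal-length SMC1 lists, chosen after seeing the data, gave an ICM gain of 8.09% by total and 8.24% by highest signal for all regions, and 10.2% by total signal for clustered ones. What the unknown depth adds to the differences between lists could not be assessed.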

Other observations

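Genes that resemble tRNA genes but were not members carried no peaks in any of the 6 lists. These were 19 nuclear copies of mitochondrial tRNA genes, 13 genes with symbols for undetermined or suppressor tRNAs, and 5 tRNA genes on the X chromosome. Per list, 3.09% to 6% of other small RNA genes and 0.488% to 1.13% of 1 kb windows held a peak. Groups this small can hold none at such shares. A single peak rarely covered more than 1 tRNA region. This was seen for 3, 5 and 2 CTCF peaks in control, ICM-treated and senescent cells and for 1, 0 and 2 SMC1 peaks, each over 2 regions at most. Peaks at tRNA regions made up 0.856%, 0.936% and 0.501% of the CTCF lists and 0.504%, 0.629% and 0.572% of the SMC1 lists.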
